A study of Sus scrofa domesticus with 6 samples.

Results

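Intestinal iron handling was described through 8 genes: CYBRD1, SLC11A2, SLC40A1, HEPH, FTH1, FTL, TFRC and HMOX1. They were chosen by name, as the rows of the gene table whose symbol matched, which gave 8 of 30352 rows with a gene name. All 8 passed the filter on low counts, which kept 18197 genes.

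Dietary iron enters the absorptive enterocyte through its brush border, where a reductase converts ferric to ferrous iron and a transporter carries it inside. The cell either stores the iron in ferritin or exports it to the blood through ferroportin, helped by a ferroxidase on the basolateral side. Iron regulatory proteins bind stem-loops in several of these mRNAs: they hold back translation of ferritin mRNA and protect the transferrin receptor mRNA from decay when the cell is short of iron. Heme iron is released by heme oxygenase, and macrophages return iron from senescent red cells by the same enzyme, ferritin and ferroportin.

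RNA sequencing had been done on small intestine of wild-type Göttingen minipigs aged 6 months in 3 groups (control, IR and IR_Pra), with 2 numbered libraries per group that are taken here as 1 animal each. The labels do not state that the libraries of a group come from separate animals. The IR animals had received 15 Gy of cobalt gamma rays to the abdomen, and the IR_Pra animals the same exposure and oral pravastatin, a statin, at 40 mg per day for 2 weeks. All tissue was taken on day 14. The labels do not name the segment of the small intestine, and whether the animals without pravastatin received a vehicle is not given.

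The libraries held between 48600424 and 73975174 counts. Epithelial markers were present in every library. Of 14 absorptive enterocyte markers, 14 were below both control libraries in IR 2, 9 in IR 1, 11 in IR_Pra 1 and 10 in IR_Pra 2. Their summed level was 29170 and 30786 CPM in the controls, 41956 in IR 1, 1221 in IR 2, and 20401 and 21121 in IR_Pra. The apolipoproteins APOA1 and APOA4 set the high sum of IR 1: over the 12 other markers it was 25254 and 25835 CPM in the controls, 11977 in IR 1, 665 in IR 2, and 17985 and 16456 in IR_Pra, a choice made after the values were seen. Summed over 12 macrophage markers, the level was 770 and 782 CPM in the controls, 3604 and 3966 in IR, and 1270 and 1918 in IR_Pra. In the same order, 9 smooth muscle markers (1 of 9 passed, higher) summed to 5908 and 12124, 32817 and 68728, and 20046 and 13860 CPM, and 7 B cell markers (5 of 7 passed, lower) to 414 and 247, 28.9 and 57.7, and 149 and 359. The part of these shifts in the gene values was not tested. Markers of the distal small bowel summed to between 597 and 23149 CPM per library, and those of the proximal bowel, where most iron is absorbed, to between 3.49 and 32.4. Library IR 1 also carried a trend with transcript length: Spearman's rho across genes between length and the deviation from the mean of all libraries was -0.41 there and between 0.01 and 0.29 in the other 5. CPM are counts scaled to a common library size by the trimmed mean of M values (TMM), and n = 2 per group throughout.

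None of the 8 genes passed an adjusted p of 0.05 in any of the 3 comparisons (edgeR quasi-likelihood test, Benjamini-Hochberg over all genes). In IR vs control 6.06% of all genes passed, in IR_Pra vs IR 0.00550%, and in IR_Pra vs control 0%. At an unadjusted p under 0.05 the counts were 0, 1 and 1 of 8, against 30.2%, 24.5% and 3.42% of all genes. DESeq2 called 0 of the 8 in each comparison. Within the IR group, the 2 animals differed most in HEPH and TFRC, HEPH being lower in one and TFRC in the other. They differed less in FTH1 and FTL, by gaps that 21.7% and 18.5% of all genes reached. Since the tissue was sequenced in bulk, fewer cells of a type and less RNA per cell cannot be told apart.

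**Figure D1:**
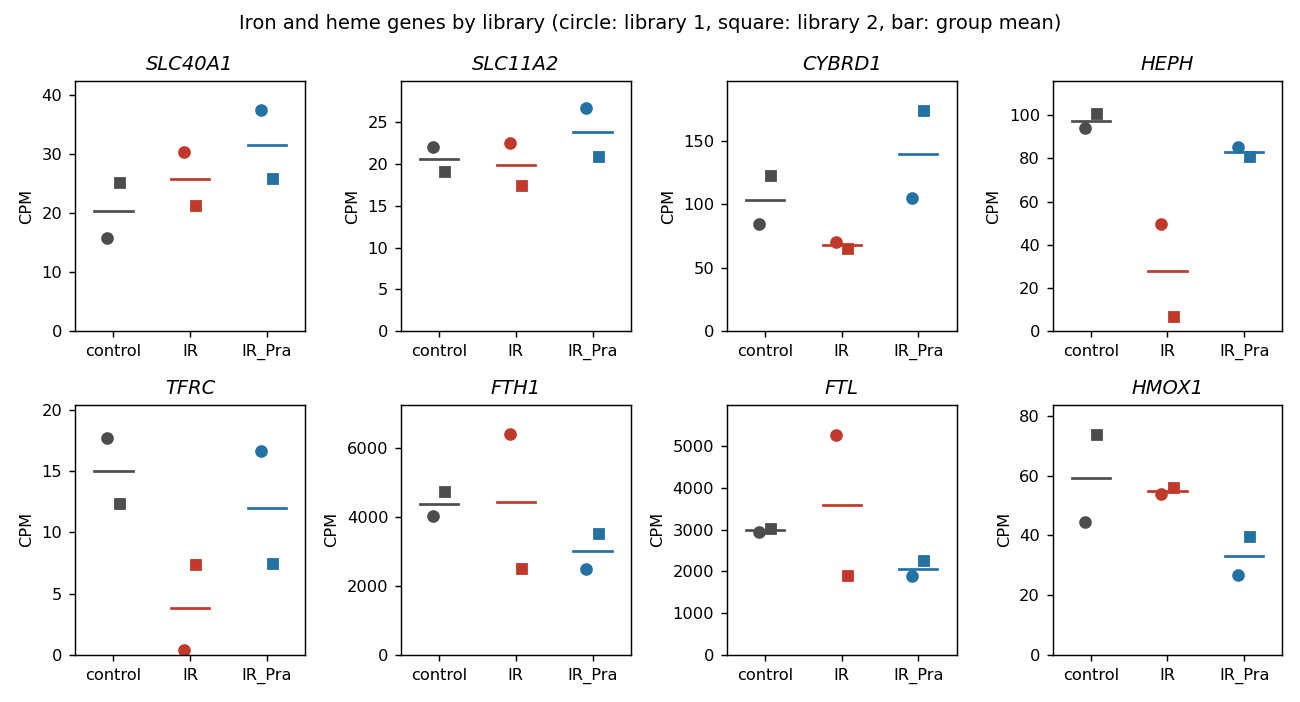
TMM-scaled CPM (linear axes from 0) of the 8 genes in each library, by group; circles are library 1, squares library 2 and bars the group mean. The IR squares and circles lie far apart for HEPH, TFRC, FTH1 and FTL and close together for CYBRD1 and HMOX1.

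Levels were compared between genes per unit of transcript length. FTH1 and FTL, the heavy and light chains of the ferritin shell, were by far the highest, with control means of 4220 ± 538 and 3073 ± 88.9 FPKM (deposited values, SD). By their mean over all libraries they ranked 9 and 16 among 30352 genes. HMOX1 and CYBRD1 followed with control means of 36.7 ± 13.3 and 24.4 ± 6.24 FPKM, which overlapped between animals. HEPH was next at 13.1 ± 0.493 FPKM. TFRC, SLC40A1 and SLC11A2 had 6.04 ± 1.47, 5.71 ± 1.77 and 5.13 ± 1.36 FPKM, and their order was within the spread between the 2 control animals. In IR_Pra CYBRD1 (34.3 ± 10.4 FPKM) stood above HMOX1 (21.4 ± 5.46) and SLC40A1 (9.25 ± 2.66) above TFRC (5.11 ± 2.87), and in neither pair did the libraries of the 2 genes overlap, though SDs were wide. In IR the means of HEPH and TFRC were the lowest of the 8, at 3.59 ± 3.71 and 1.58 ± 2.04 FPKM.

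**Figure D2:**
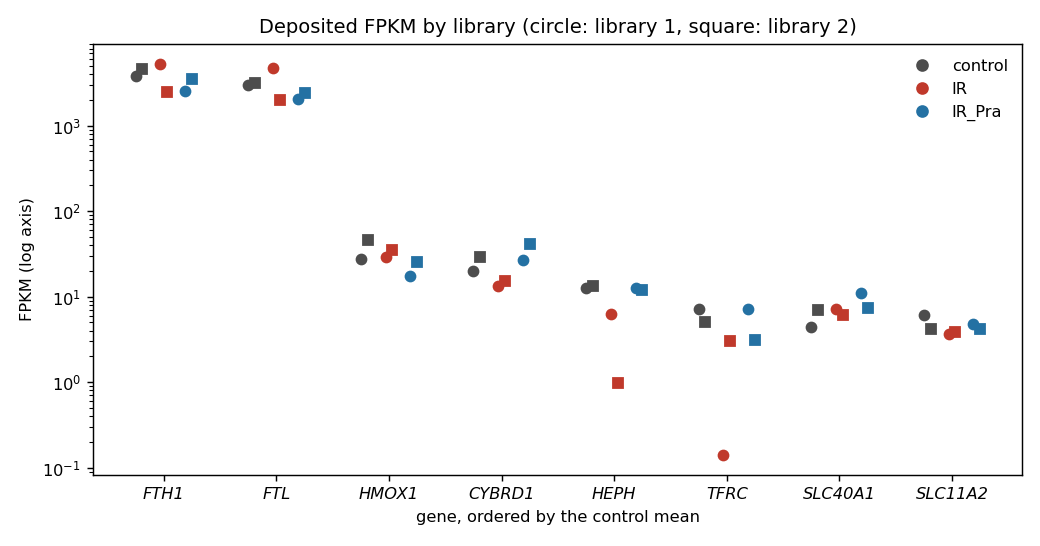
Deposited FPKM of the 8 genes per library on a log axis, ordered by the control mean; colours are groups, circles library 1 and squares library 2. FTH1 and FTL lie at 1979 FPKM or above in all 6 libraries, and TFRC reaches its lowest value, 0.140 FPKM, in IR 1.

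The uptake genes came first. CYBRD1 (Entrez 100144591, chromosome 15, 77649124 to 77695141 on Sscrofa11.1) encodes duodenal cytochrome b, the brush border ferric reductase. Its level was 84.7 and 122 CPM in the control animals, 70.4 and 64.9 in IR, and 105 and 174 in IR_Pra. Both IR animals were below both controls, and both IR_Pra animals were above both IR animals, while IR_Pra and control overlapped. The fitted log2 fold change was -0.61 ± 0.33 (SE, adjusted p = 0.265) in IR vs control and 1.04 ± 0.33 (unadjusted p = 0.0207, adjusted p = 0.137) in IR_Pra vs IR. The latter was the smallest adjusted p of the 8 genes in any comparison, and both values share the same IR animals. Leaving out each library in turn kept the direction of IR_Pra vs IR, with values from 0.57 to 1.29. At the length of CYBRD1 (4320 nt) the length trend of IR 1 was -0.26 against control, beside a measured difference of -0.53. With each library's trend removed the log2 fold change was -0.50 (adjusted p = 0.387) in IR vs control. In IR_Pra vs IR it was then 0.92 (adjusted p = 0.196).

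SLC11A2 (Entrez 733595), the ferrous iron transporter DMT1 that works next to the reductase, had 22.1 and 19.1 CPM in the controls, 22.4 and 17.4 in IR, and 26.7 and 20.9 in IR_Pra. All 3 groups overlapped. Its log2 fold change was -0.05 ± 0.27 in IR vs control (adjusted p = 0.925), 0.26 ± 0.27 in IR_Pra vs IR (0.582) and 0.21 ± 0.27 in IR_Pra vs control (0.9998), with the smallest SE of the 8 genes. The sign in IR vs control was not fixed: it was positive under 6 of the alternatives, among them the removal of the length trend (0.17). The reference table assigns neither SLC11A2 nor HMOX1 to a chromosome. The ratio of CYBRD1 to SLC11A2 in FPKM was 3.29 and 6.92 for the control animals, 3.63 and 3.96 for IR and 5.57 and 9.97 for IR_Pra. In FPKM the groups overlapped in this ratio except IR and IR_Pra. That overlap depends on the measure. SLC11A2 had 6.09 and 4.16 FPKM in the controls and 3.62 and 3.87 in IR, with no overlap, unlike its CPM. The ratio was not taken in CPM.

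On the export side, HEPH (Entrez 100512938, chromosome X, 52314911 to 52397384) encodes hephaestin, the basolateral ferroxidase of enterocytes. The control animals had 94.2 and 101 CPM and the IR_Pra animals 85.3 and 80.5, whereas IR 1 had 49.5 and IR 2 had 6.56. Both IR animals lay below all 4 others. Against the control mean, IR 1 was 1.97-fold lower and IR 2 was 14.8-fold lower. The gap between the IR animals was 2.91 on the log2 scale, and 5.09% of all genes had a gap at least as large in that group. With all libraries the log2 fold change was -1.80 ± 0.83 in IR vs control (adjusted p = 0.206) and 1.56 ± 0.82 in IR_Pra vs IR (adjusted p = 0.295). Without IR 1 they were -3.89 and 3.66. Without IR 2 they were -0.98 and 0.75. Those fits leave 1 animal in the IR group, which is assumed to vary like the others.

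The low HEPH of IR 2 stood beside low enterocyte markers. Their sum was 1221 CPM in IR 2 and at least 20401 in the 5 other libraries, and 10 general epithelial markers summed to 1509 CPM in IR 2 and between 5303 and 6390 elsewhere. In IR 1, 9 of the 14 enterocyte markers were below both controls and 3 were above them. In IR_Pra 1 and IR_Pra 2, 11 and 10 were below and 2 were above in each. HEPH was below both controls in each of these libraries. Of the 14 markers, 0 passed the threshold in IR vs control. HEPH has a long transcript (7088 nt, from counts and FPKM), and the length trend of IR 1 at that length was -0.57 against control, beside a measured difference of -0.97. With the trend removed the fold change in IR vs control was -1.28 (adjusted p = 0.401). The part of cell composition in these values was not tested.

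SLC40A1 (Entrez 100737517, chromosome 15, 94140635 to 94161793) encodes ferroportin, the iron exporter of enterocytes and macrophages. It had 15.7 and 25.1 CPM in the controls, 30.4 and 21.3 in IR, and 37.4 and 25.7 in IR_Pra. The IR and control ranges overlapped, and both IR_Pra animals were above both controls, the upper one of which was close to the lower IR_Pra animal. The log2 fold change was 0.34 ± 0.36 in IR vs control (adjusted p = 0.551) and 0.63 ± 0.36 in IR_Pra vs control (adjusted p = 0.9998). SLC40A1 and HEPH, which act in the same export step, did not move alike: counts of HEPH per count of SLC40A1 were 5.98 and 4.01 in control, 2.28 and 3.13 in IR_Pra, 1.63 in IR 1 and 0.309 in IR 2. The 3 groups did not overlap in this ratio, which was not tested. The transcripts differ in length (7088 and 3615 nt), and with each library's length trend removed the ratio was 2.21 in IR 1 and 0.346 in IR 2, 2.14 and 3.31 in IR_Pra, and 5.92 and 4.05 in the controls, so that IR and IR_Pra overlapped.

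Ferritin stores iron as a mineral core, with the heavy chain oxidising iron and the light chain aiding core formation. FTH1 (Entrez 397030, chromosome 2, 9535051 to 9537979) had 4029 and 4748 CPM in the controls, 6412 in IR 1, 2503 in IR 2, and 2486 and 3525 in IR_Pra. FTL (Entrez 397035, chromosome 6, 54231121 to 54232756) had 2951 and 3023 CPM in the controls, 5274 in IR 1, 1881 in IR 2, and 1892 and 2242 in IR_Pra. For both chains, IR 1 was the highest of the 6 libraries, IR 2 was near the lowest, and both IR_Pra animals were below both controls. The gap between the IR animals was 1.36 on the log2 scale for FTH1 and 1.49 for FTL. In that group 21.7% and 18.5% of all genes had a gap at least as large. The chains followed each other, with Pearson r = 0.96 and Spearman rho = 0.94 over the 6 libraries, a description with no test. Together they took 0.696% and 0.789% of all counts in control, 1.01% in IR 1, 0.449% in IR 2, and 0.467% and 0.602% in IR_Pra.

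In IR vs control the mean therefore stands between 2 unlike animals, and the log2 fold change was 0.02 ± 0.68 for FTH1 (adjusted p = 0.986) and 0.26 ± 0.64 for FTL (adjusted p = 0.813). Without IR 1 these were -0.81 and -0.67, and without IR 2 they were 0.54 and 0.82, in fits that leave 1 animal in the IR group. In IR_Pra vs IR the values were -0.57 ± 0.68 and -0.79 ± 0.64 (adjusted p = 0.636 and 0.479). Without IR 2 the value for FTL was -1.35, and without IR 1 the sign turned for FTH1 (0.27) and FTL (0.14). In IR_Pra vs control, where groups did not overlap, FTH1 differed by -0.55 ± 0.68 and FTL by -0.53 ± 0.64 (both adjusted p = 0.9998).

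Both ferritin transcripts are short (1046 and 977 nt). In IR 1 the high value of FTH1 lay on that library's length trend, and that of FTL lay above it. The trend at the lengths of these transcripts was 0.56 and 0.57 against control, beside measured differences of 0.55 for FTH1 and 0.82 for FTL. With the trend removed, FTH1 was -0.40 and FTL -0.18 in IR vs control (adjusted p = 0.652 and 0.837). The FTL to FTH1 ratio in FPKM, between 2 transcripts of near-equal length, was 0.784 and 0.682 in control, 0.880 in IR 1, 0.804 in IR 2, and 0.815 and 0.681 in IR_Pra. Both IR values were above both control values, and IR_Pra overlapped with each. Ferritin genes have many processed copies in mammalian genomes, so reads may have been divided with copies in a way the deposited counts do not show.

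TFRC (Entrez 397062, chromosome 13, 133976765 to 133997554) encodes the transferrin receptor, which takes up iron from blood and is abundant on dividing cells. Its level was 17.7 and 12.3 CPM in the controls, 7.33 in IR 2, 16.7 and 7.39 in IR_Pra, and 0.409 in IR 1. That last value rests on 22 counts (95% exact Poisson interval 13.8 to 33.3, counting error only), where the other libraries had between 394 and 1023. IR 1 was 36.7-fold below the control mean and IR 2 was 2.05-fold below it. The gap between the IR animals was 4.06 on the log2 scale, which 2.04% of all genes reached in that group. Both IR animals were below all 4 others, though IR 2 by little. The log2 fold change was -1.95 ± 1.14 in IR vs control (adjusted p = 0.2998) and 1.63 ± 1.13 in IR_Pra vs IR (adjusted p = 0.412). Without IR 2 these became -5.19 and 4.87, and without IR 1 they became -1.04 and 0.72. Such fits leave 1 animal in the IR group, so the spread between IR animals does not enter them.

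The low TFRC in IR 1 was not on that library's length trend, which was 0.14 at 2497 nt. FTH1 per TFRC in FPKM was 38199 in IR 1, 815 in IR 2, 542 and 919 in control, and 355 and 1138 in IR_Pra. Of the 5 other libraries, IR 2 lay between the controls and the IR_Pra animals lay on either side of them. IR 1 stood far above all 5. Its ratio rests on 22 counts of TFRC, and no length trend was removed from it. FTH1 in IR 1 lay on that trend (0.56, beside a measured difference of 0.55). A link between TFRC and ferritin was not tested. HEPH and TFRC gave the opposite picture of the IR animals, HEPH being lower in IR 2 and TFRC in IR 1.

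**Figure D3:**
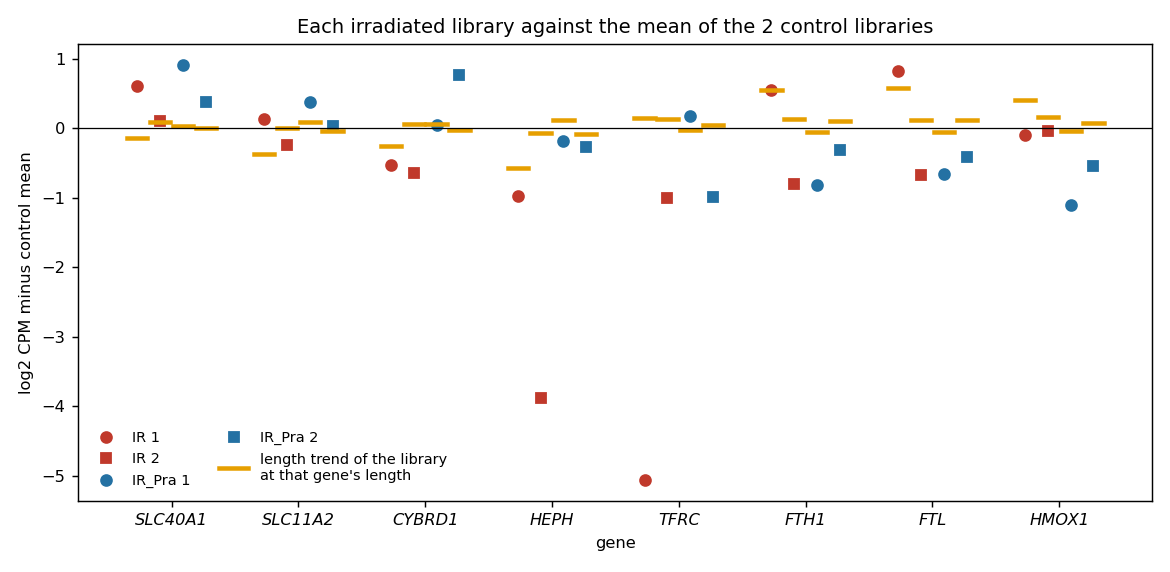
Log2 CPM of each irradiated library minus the mean of the 2 control libraries for the 8 genes; red is IR, blue IR_Pra, circles library 1, squares library 2, and orange bars the length trend of that library at the gene's transcript length. TFRC in IR 1 (-5.06) and HEPH in IR 2 (-3.88) lie far below their bars, and FTH1 in IR 1 (0.55) lies on its bar.

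HMOX1 (Entrez 445512), the inducible heme oxygenase that opens the heme ring and frees its iron, had 44.5 and 73.7 CPM in the controls, 53.7 and 55.7 in IR, and 26.6 and 39.3 in IR_Pra. The IR animals lay between the controls, and both IR_Pra animals were below all 4 others. The log2 fold change was -0.11 ± 0.33 in IR vs control (adjusted p = 0.848), -0.73 ± 0.33 in IR_Pra vs IR (adjusted p = 0.241) and -0.84 ± 0.33 in IR_Pra vs control (unadjusted p = 0.0457, adjusted p = 0.9998). In IR_Pra vs control, 20.0% of all genes were lower with no overlap, and leaving out each library in turn gave values from -1.19 to -0.42. Macrophages are a main site of this enzyme. HMOX1 in the IR animals was within the control range, and their macrophage marker sum was 3604 and 3966 CPM against 770 and 782 in control. At the length of HMOX1 (1621 nt) the length trend of IR 1 was 0.40 against control, beside a measured difference of -0.09. With the trend removed the log2 fold change in IR vs control was -0.39 (adjusted p = 0.448). The part of macrophages in the HMOX1 values was not tested. HMOX2, the constitutive form, named here outside the rule for its role, had 108 and 127 CPM in the controls, 111 and 61.1 in IR, and 81.6 and 107 in IR_Pra.

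**Figure D4:**
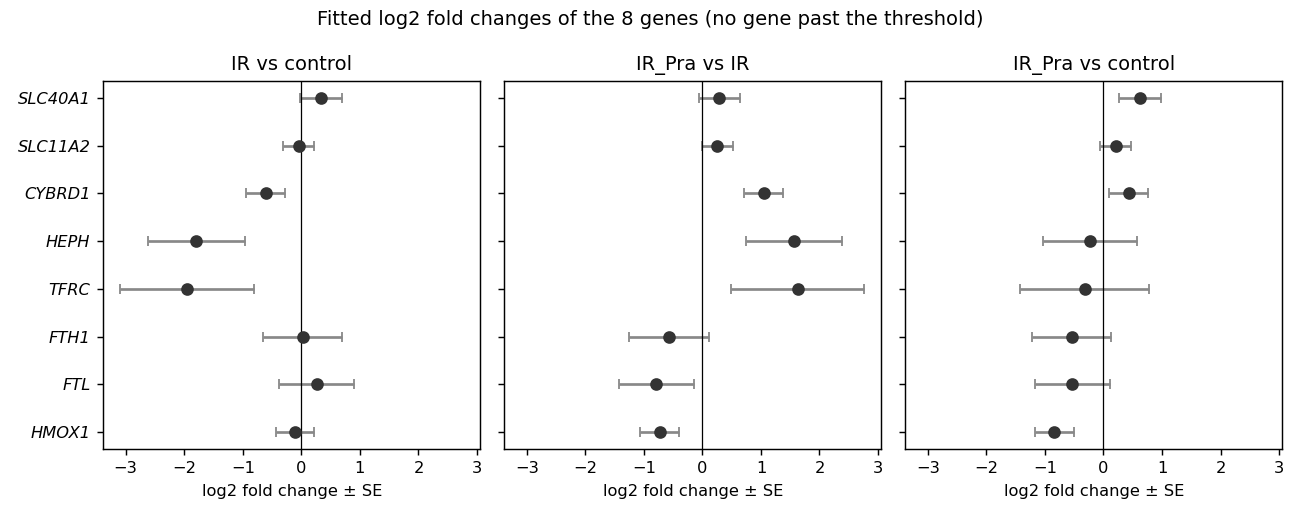
Log2 fold changes of the 8 genes with their standard errors in the 3 comparisons, from 1 edgeR fit of all 6 libraries. HEPH and TFRC have the lowest values in IR vs control (-1.80 and -1.95) and wide errors, and none of the 24 values passed the threshold.

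Read as a set, the 8 genes showed no shared direction. Their median log2 fold change was -0.08 in IR vs control, 0.27 in IR_Pra vs IR and -0.28 in IR_Pra vs control, beside 0.03, -0.02 and 0.00 over all genes tested. Groups did not overlap for 3 of 8 in IR vs control (CYBRD1, HEPH and TFRC, all lower), while 59.8% of all genes did not overlap, 29.8% higher and 30.0% lower. In IR_Pra vs IR they did not overlap for 4 of 8 (those 3 higher and HMOX1 lower), beside 53.9% of all genes (27.3% higher and 26.6% lower). In IR_Pra vs control the count was 5 of 8, with SLC40A1 higher and HEPH, FTH1, FTL and HMOX1 lower, beside 40.8% of all genes (20.8% higher and 20.0% lower). The first 2 of these comparisons share the IR animals, so the return of the same 3 genes is not a separate observation.

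A wider list of 82 iron and heme genes, the 8 included, was read by role. Of these, 80 were matched in the table, 4 were below the filter in every row, and 76 gave 77 tested rows, since TF has 2. In IR vs control 9 rows passed, 4 higher and 5 lower, which is 11.7% of the rows beside 6.06% of all genes (3.39% higher and 2.68% lower). The list median was 0.25, and it was 0.25 as well with the TF row that has 0 control counts set at its bound. All 9 calls were outside the 8 genes. The calls changed with the libraries kept: with any 1 control or IR_Pra library left out, 0 rows of the list passed, and without IR 1 and IR 2 the counts were 30 and 22. No row of the list passed in IR_Pra vs IR or IR_Pra vs control with edgeR. Of the 77 rows, 27 and 8 had an unadjusted p under 0.05, beside 24.5% and 3.42% of all genes. DESeq2 called 16 and 2 rows of the list, beside 2872 and 72 of 18197 genes.

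**Figure D5:**
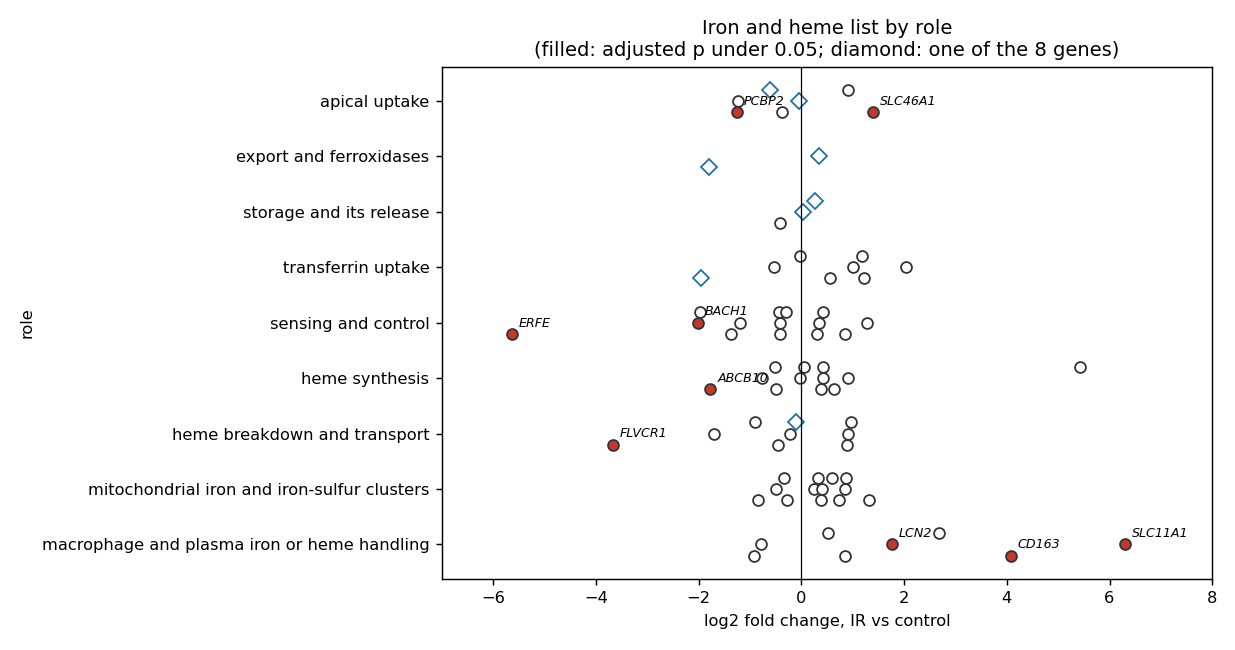
Log2 fold change in IR vs control for 76 rows of the iron and heme list, grouped by role (1 TF row with 0 control counts is not drawn); filled points passed the threshold, and diamonds are the 8 genes. The 9 filled points are on both sides of 0, and no diamond is filled.

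In heme breakdown and transport 1 of 9 rows passed, in sensing and control 2 of 14 and in heme synthesis 1 of 12, all lower. In the first of these roles 3 of 9 rows had a positive log2 fold change. FLVCR1, a heme exporter of the cell surface also known as a choline transporter, fell from 30.5 and 25.9 CPM in control to 2.38 and 2.05 in IR, with 30.4 and 17.0 in IR_Pra (-3.67 ± 0.38, adjusted p = 0.0359). Both IR animals were alike here, unlike for HEPH or TFRC, and both IR_Pra animals were above them (IR_Pra vs IR 3.42 ± 0.37, adjusted p = 0.0754). BACH1, a heme-sensing repressor of HMOX1 and the ferritin genes, fell from 59.0 and 60.5 CPM to 10.7 and 18.8, with 54.1 and 36.5 in IR_Pra (-2.02 ± 0.36, adjusted p = 0.0423). HMOX1 itself did not differ past the threshold in that comparison, as given above. ABCB10, a mitochondrial transporter needed for heme synthesis, fell from 52.5 and 53.8 to 15.7 and 15.3 CPM, with 31.9 and 40.9 in IR_Pra (-1.78 ± 0.23, adjusted p = 0.0370). ERFE, the hormone erythroferrone, fell from 4.29 and 3.91 CPM to 0 and 0.145, with 0.676 and 1.99 in IR_Pra (-5.64 ± 1.11, adjusted p = 0.0463). Its IR values were at or near 0. ERFE also passed with DESeq2, but not with voom (adjusted p = 0.0644) or, in edgeR, with library size alone (adjusted p = 0.0538). BACH1 passed with DESeq2 and voom, but not, in edgeR, with library size alone (adjusted p = 0.0569).

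Among the uptake genes outside the 8, PCBP2, a chaperone that hands iron to ferritin and also binds RNA, fell from 417 and 414 CPM to 175 and 171, with 276 and 338 in IR_Pra (-1.26 ± 0.26, adjusted p = 0.0487). SLC46A1, a proton-coupled folate carrier that was also described as a heme carrier, rose from 5.51 and 6.94 CPM to 17.3 and 15.2, with 7.05 and 6.45 in IR_Pra (1.39 ± 0.28, adjusted p = 0.0487). In this role 2 of 7 genes passed, in opposite directions. Both calls were close to the threshold, and both held with DESeq2 and voom. With no filter the adjusted p of the edgeR test was 0.0556 for PCBP2 and 0.0544 for SLC46A1. With library size alone these were 0.0539 and 0.0695.

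The genes that rose otherwise belonged to the handling of iron and heme by macrophages and plasma proteins, where 3 of 8 passed. CD163, the scavenger receptor for haemoglobin, rose from 10.02 and 10.19 CPM to 134 and 206, with 44.1 and 42.5 in IR_Pra (4.07 ± 0.30, adjusted p = 0.0331). SLC11A1, the phagosomal relative of SLC11A2, rose from 0.208 and 0.159 CPM to 7.86 and 21.2, with 1.76 and 1.44 in IR_Pra (6.30 ± 0.67, adjusted p = 0.0359). LCN2, a protein that binds bacterial iron carriers, rose from 1.39 and 1.59 to 5.498 and 4.582 CPM (1.76 ± 0.35, adjusted p = 0.0480). LCN2 also passed with DESeq2, but not with voom (adjusted p = 0.0517) or, in edgeR, with the length trend removed (adjusted p = 0.0559). The 12 macrophage markers moved with these genes: 10 of 12 rose past the threshold in IR, none was at 0 in a whole group, and the part of cell number was not tested.

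Among 12 heme synthesis genes ABCB10 was the 1 that passed. ALAS2, the erythroid first enzyme of the pathway, had 0 and 0.0635 CPM in the controls, 0.353 and 2.60 in IR, and 0.309 and 1.78 in IR_Pra. It was highest in the libraries with most globin RNA: 3 alpha and beta globin rows summed to 7.38 and 12.9 CPM in the controls, 20.9 and 88.3 in IR, and 13.8 and 53.6 in IR_Pra, while the red cell genes KLF1 and SLC4A1 were at 0 in all libraries, and the part of blood in the tissue was not tested. Of 13 rows for mitochondrial iron and iron-sulfur cluster assembly, 0 passed, and 9 had a positive log2 fold change in IR vs control. LYRM4, a partner of the cysteine desulfurase, had the smallest p in this role (1.32 ± 0.32, adjusted p = 0.0627). Of 9 transferrin uptake rows, 0 passed, and STEAP1 had the smallest p (2.03 ± 0.62, adjusted p = 0.0984). That row was low, at 0.156 and 0.333 CPM in the controls and 0.892 and 1.12 in IR. A second STEAP1 row, below the filter, had 0.104 and 0.0953 CPM in the controls and 0.0557 and 0.0396 in IR. NCOA4, the receptor that delivers ferritin for breakdown, had 103 and 122 CPM in the controls, 91.0 and 76.7 in IR, and 132 and 106 in the IR_Pra animals (-0.43 ± 0.24 in IR vs control, adjusted p = 0.287).

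By the same rule, the genes with the smallest p in their role in the other comparisons did not pass either. For IR_Pra vs IR they included TFR2, the liver-type transferrin receptor (-1.90 ± 0.62, adjusted p = 0.143). In IR_Pra vs control they included HFE, a partner of TFRC in iron sensing (0.83 ± 0.28), BLVRA, a biliverdin reductase (-0.38 ± 0.29), and SLC25A28, a mitochondrial iron carrier (-0.39 ± 0.29), each with an adjusted p of 0.9998.

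The sensors of cell iron were read beside TFRC and ferritin. IREB2, iron regulatory protein 2, had 21.2 and 15.96 CPM in the controls, 7.37 and 6.93 in IR, and 22.4 and 14.9 in IR_Pra (log2 fold change against control -1.38 ± 0.32, adjusted p = 0.0586). ACO1, iron regulatory protein 1, had 164 and 134 CPM in the controls, 267 in IR 1, 99.9 in IR 2, and 154 and 151 in IR_Pra, so that it split the IR animals as ferritin did (adjusted p = 0.695). FBXL5, which marks IREB2 for degradation, had 78.4 and 81.6 CPM in the controls, 77.1 and 42.2 in IR, and 83.0 and 75.8 in IR_Pra (adjusted p = 0.412). Both IR animals were thus below all others in IREB2, and alike in it, unlike for TFRC or ferritin. In IR vs control 30.0% of all genes were lower with no overlap, and in IR_Pra vs IR 27.3% were higher with no overlap. IREB2, ACO1 and FBXL5 were chosen for mention after their values were seen.

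Over the 6 libraries, the genes most like each member in log2 CPM were taken from 9966 genes with a symbol and a mean of at least 10 CPM. HEPH was most like CCNL1 (Pearson r = 0.9996) and MYRFL (0.999), and TFRC most like ZCCHC8 and FYCO1 (both 0.999). FTL was most like EEFSEC (0.9997) and FAU (0.994), FTH1 like OCEL1 (0.997) and MRRF (0.994), and CYBRD1 like ZRANB1 (0.99) and DAP3 (0.97). For SLC11A2 these were TMEM170A and ADGRF2 (both 0.99), for SLC40A1 PTGR2 (0.98) and SMN1 (0.97), and for HMOX1 NOL6 (0.98) and PANK4 (0.96). Many other genes had the patterns of HEPH and TFRC, each with 1 low library: 4.61% and 3.69% of the 9966 genes had r over 0.95 with them, against 0.562% for FTH1, 0.833% for FTL and 0.110% or less for the others. These r are descriptions over 6 libraries that share scaling and length trends.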

How the data were processed

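RNA was extracted with Trizol, per the labels' protocols. The submitters' processing notes name bcl2fastq 2.20.0, Trimmomatic, HISAT2 2.1.0 and StringTie 2.1.3b, and the builds Sscrofa11.1 and GRCh38; the role of the latter and the making of whole-number counts are not given in the sources used here. Per the file headers, the deposited table holds a read count and an FPKM value per gene and library. Another 24 rows without a gene name held 0.00906% to 0.0385% of counts and were left out. All 30352 named rows matched RefSeq (Sscrofa11.1) by Entrez ID.

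Counts were fitted in R 4.3.3 with edgeR 4.0.16 (filterByExpr by group, TMM, glmQLFit with legacy = FALSE, 1 term per group, all 6 libraries, 3 residual degrees of freedom, two-sided F test), with Benjamini-Hochberg adjustment over 18197 genes and a threshold of 0.05. Each standard error was derived from the F statistic. Transcript length was the median over libraries of the length implied by counts and FPKM. Levels were compared between genes in FPKM. The fit was tested on simulated counts. Those counts had less spread between libraries than these data and no length trend, so the test does not cover either. Differences per library are of log2 CPM with a prior count of 2. The labels do not state that libraries are separate animals, so p-values measure only the spread between these libraries, which may be technical.

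The 8 genes and the lists were chosen with earlier results of these data known. Named were all 8 genes and, per role of the list, up to 3 other genes past the threshold or else 1 with the smallest p; genes outside this rule are named as such or stand beside a member. Some genes that the rule or a list names are not reported here. Alternatives were DESeq2 1.42.0, limma 3.58.1 (voom, and trend on log2(FPKM + 1)), DESeq2 size factors, library size alone, no filter, a replicate block, the 4 libraries of a comparison, a removed length trend (lowess per library, as an offset), each library left out and, chosen after seeing the data, the legacy edgeR fit and swapped IR_Pra numbers.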

Additional observations from a re-analysis of the deposited data

How the results depend on the processing

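None of the 8 genes passed under any alternative that kept all libraries of a comparison. Of 384 values of the 8 genes under alternatives, 355 kept direction and side of the threshold, 23 changed sign and 6 passed the threshold with a library of IR left out. The smallest count of a member was 22 (TFRC in IR 1), where counting error is widest.

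Changes of sign were in these values. In IR vs control, SLC11A2 was 0.0201 with the 4 libraries alone and 0.172 with the length trend removed, and ranged from -0.245 to 0.124 leaving out each library. FTH1 was -0.102 with voom, -0.214 on log2(FPKM + 1), -0.123 with library size alone and -0.401 with the length trend removed, and ranged from -0.813 to 0.545 leaving out each library. FTL was -0.0114 on log2(FPKM + 1) and -0.180 with the length trend removed, with a range from -0.671 to 0.818, and HMOX1 ranged from -0.393 to 0.370. In IR_Pra vs IR the ranges leaving out each library were -0.0869 to 0.573 for SLC40A1, -0.00964 to 0.455 for SLC11A2, -1.091 to 0.266 for FTH1 and -1.349 to 0.139 for FTL. In IR_Pra vs control, SLC11A2 was -0.139 on log2(FPKM + 1), and TFRC ranged from -1.032 to 0.150.

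Counts past the threshold moved far more. All genes in IR vs control were 1103, and 4131 with DESeq2, 475 with library size alone, 403 on log2(FPKM + 1), 0 with the 4 libraries alone and 0 to 5342 leaving out each library. In IR_Pra vs IR the count of 1 became 2872 with DESeq2, 2 with library size alone or no filter, 0 with voom or the 4 libraries alone, and 0 to 3728 leaving out each library. In IR_Pra vs control 0 became 72 with DESeq2. For the list, 9 in IR vs control became 21 with DESeq2, 5 on log2(FPKM + 1), 4 with library size alone, 5 with the legacy fit, 0 with the 4 libraries alone and 0 to 30 leaving out each library, and 0 became 16 (DESeq2) and 0 to 17 in IR_Pra vs IR and 2 (DESeq2) in IR_Pra vs control. Of the 8 genes, 0 to 2 passed in IR vs control and in IR_Pra vs IR leaving out each library. The cause was not tested; leaving out a library also lowers the residual degrees of freedom. Library size alone moved the median gene by 0.15 in IR_Pra vs IR, and log2(FPKM + 1) by 0.16.

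The replicate block gave 0 genes in IR vs control and 0 in IR_Pra vs IR, 0 rows of the list, and -0.0277 for FTH1 in IR vs control. The labels do not say that equal numbers share anything, and deviations of same-numbered libraries correlated at 0.08, -0.11 and -0.09. Swapping the IR_Pra numbers gave 0 genes in IR_Pra vs control, and 5 rows of the list in IR vs control, all among the 9.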
